A study of Homo sapiens with 40 samples.

Results

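Gene expression of wild-type (WT) MDA-MB-231 cells, a triple-negative breast cancer line of mesenchymal character, was set against that of unstimulated MI-spheres, across all annotated genes. The members were the 6 RNA-seq libraries labelled MDA-MB-231-WT and MI-Ctrl, with 3 libraries each, out of 40 samples in the series, 24 of which were RNA-seq libraries with count files. MI stands for MCF-10A, an immortalized breast epithelial line, labelled with a WT genotype and no treatment. MI cells were grown as 3D spheres in ultra-low attachment plates, which they begin to form within a day of seeding. The MDA-MB-231 cells were also untreated and of WT genotype but were kept as a monolayer in DMEM with 10% FBS. No library of either group received TGFβ. Each group is 1 cell line, so line, growth form and medium change together and cannot be told apart. All 6 libraries carry the same batch label and are labelled as biological replicates, with no statement of separate cultures, so p-values measure the spread between these libraries.

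Mammary epithelium is held together by adherens junctions, tight junctions and desmosomes, and its basal cells carry a typical set of keratins and the transcription factor p63. In epithelial-mesenchymal transition (EMT), transcription factors of the SNAIL, ZEB and TWIST families repress junction genes, while vimentin, fibrillar collagens and their receptors are turned on. The miR-200 family and ZEB1/ZEB2 repress each other, and ESRP and GRHL proteins hold up the epithelial state. MDA-MB-231 cells are known for invasive growth, while MCF-10A cells are non-tumorigenic, depend on growth factors and keep basal epithelial features.

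The label check on markers placed both groups where their names put them, with a few gaps. MI-spheres had KRT5, KRT17, TP63, CDH1, EPCAM, LAMB3 and ITGB4 transcripts, but KRT14, a classic basal keratin, reached only 1.67, 1.66 and 1.56 CPM (counts scaled to library size, after TMM normalization) in the 3 libraries. LAMB3 and ITGB4 did not pass the test between the groups, as given below. Of the luminal markers, FOXA1 was higher in MI-spheres and KRT19 higher in WT cells. WT cells had VIM, ZEB1, FN1, AXL, MSN, CD44 and CDH11 transcripts, whereas SPARC, a matrix glycoprotein, stayed at 0.626, 0.604 and 0.587 CPM. Estrogen receptor ESR1 and progesterone receptor PGR were at or under 0.352 and 0.117 CPM in every WT library. ADIPOQ, MS4A1 and CD163, which define adipocytes, B cells and macrophages, had no count in any of the 6 libraries, and PTPRC, the pan-leukocyte marker, stayed at or under 0.335 CPM. Other markers of such cell types were present, among them the immune marker CD14 and the endothelial marker CDH5 in MI-spheres, as given further below.

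Between 19546521 and 25645025 fragments were counted per library. WT replicate 2 stood apart from the other libraries. Log2 CPM correlated with r of 0.991 to 0.993 among the MI-sphere libraries and 0.991 between WT replicates 1 and 3, but with 0.9504 and 0.9454 between WT replicate 2 and the others of its group. In that library 5737 of the 18732 genes tested (30.6%) lay more than 2-fold from the mean of the other WT libraries. The same share was 6.41% and 10.5% for WT replicates 1 and 3 and 2.22% to 2.78% for MI-spheres. Deviations of WT replicate 2 followed the GC content of the transcripts (Spearman's rho across genes 0.662) with little relation to their length (0.011). Since each library is set against the other WT libraries, replicates 1 and 3 had rho of -0.689 and -0.462 with GC content, against -0.107 to 0.160 for MI-spheres. Protein-coding genes of the mitochondrial genome took 2.11% of the counts of WT replicate 2 against 0.743% and 0.607% in WT replicates 1 and 3. Small nuclear and nucleolar RNAs took 0.0375% against 0.115% and 0.116%, and 0.698% to 0.756% in MI-spheres. The part of these differences in any result below was not tested, and counts are therefore also given without WT replicate 2.

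WT cells and MI-spheres differed in a large share of their transcripts. The quasi-likelihood test of edgeR (adjusted p by Benjamini-Hochberg) found 5259 genes (28.1% of those tested) higher and 4848 (25.9%) lower in WT cells past an adjusted p of 0.05. Of these, 8343 (44.5%) were differentially expressed genes (DEGs), which also needed an absolute log2 fold-change above 1. Among the DEGs, 4388 (23.4% of genes tested) were higher and 3955 (21.1%) lower in WT cells. They comprised 6012 of 13779 protein-coding genes and 1640 of 3384 long noncoding RNAs (lncRNAs) tested. CPM ranges of both groups did not overlap for 12517 genes (66.8%). The median log2 fold-change over all genes tested was 0.06. This median and the DEG shares of 23.4% higher and 21.1% lower are the background for each group of genes below. Changes above 16-fold were fitted for 1036 higher and 1100 lower DEGs. No count at all was found in the 3 WT libraries for 272 lower DEGs, and none in the 3 MI-sphere libraries for 190 higher DEGs. For such genes a fold is given as a lower bound against 3 counts summed over the group (0.0413 CPM in WT cells and 0.0476 CPM in MI-spheres). These bounds cover counting error only. The low-count filter was passed through MI-sphere libraries alone by 2284 genes and through WT libraries alone by 2193, and such genes had to differ. In bulk RNA, fewer expressing cells and less RNA per cell cannot be told apart. In parentheses below, the log2 fold-change (WT cells over MI-spheres, ± SE where given, n = 3 per group) comes before the adjusted p from edgeR. Values of 3 libraries are CPM in the order of replicates 1, 2 and 3, with MI-spheres before WT cells where 2 sets are joined by "against".

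Without WT replicate 2, 4448 DEGs were higher and 4696 lower. Among the DEGs found with all 6 libraries, 3939 higher and 3702 lower genes kept their call, and 0 were called in the opposite direction. The number of genes past the adjusted p alone was larger without that library (14660). Most genes named below follow the naming rule given with the methods. The following were chosen after their values were seen and serve as description: SPARC, PTPRC, CLDN7, PERP, TJP1, CXADR, PKP2, GATA3, CRB3, KRT15, KRT17, KRT8, KRT18, LCN2, IVL, SPRR3, S100A2, AXL, FN1, COL1A1, LAMA3, LAMB3, ITGB4, MMP13, MMP14, WWTR1, TEAD1, TEAD4, YAP1, TGFBR1, TGFBR2, TGFBR3, DUSP5, DUSP6, TGFA, TOP2A, PCNA, IFNE, FOCAD, HOXC11, ISG15, IRF9, CIITA, HLA-B, HLA-C, CXCL8, CA9, SQLE, HOXA10, HOXA11, IL1A, IL1B, IL18 and MSN.

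**Figure D1:**
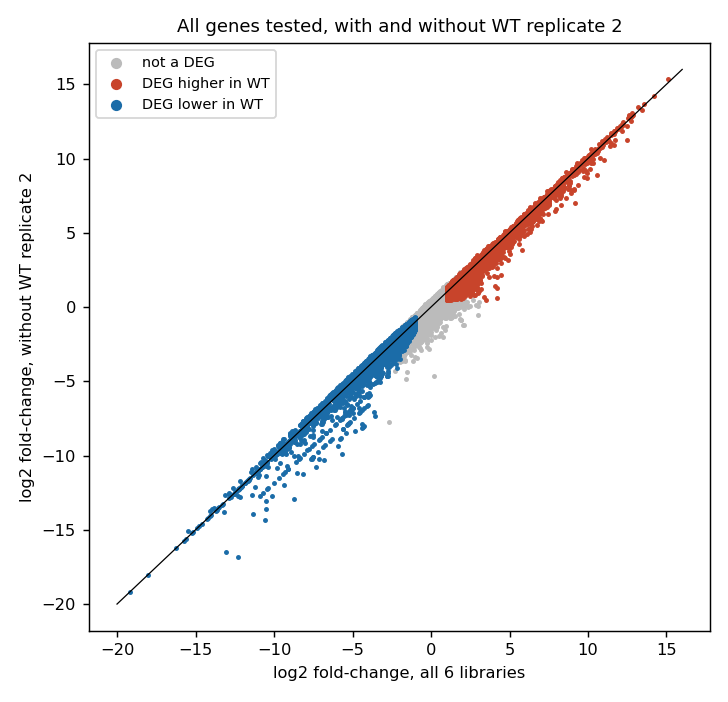
Log2 fold-change of WT cells against MI-spheres for each gene tested, with all 6 libraries (x axis) and without WT replicate 2 (y axis); colours mark the DEGs of the 6-library fit. No DEG of the 6-library fit is called in the opposite direction on the y axis, and the median over all genes is 0.06 with and -0.03 without that library.

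Junction genes were low in WT cells almost throughout. Of 26 junction genes tested, 22 were DEGs lower in WT cells and 0 higher, with a median log2 fold-change of -3.19, and the numbers of calls were the same without WT replicate 2. Of the genes tested, 4 passed the filter through MI-spheres alone, and PKP1 was not tested. CDH1, which codes for the adherens junction protein E-cadherin, was at 556, 554 and 542 CPM in MI-spheres and 1.60, 0.776 and 1.47 CPM in WT cells. The gene lies at 68737292 to 68835537 on the plus strand of chromosome 16 (GRCh38.p13). All MI libraries lay far above all WT libraries, with a log2 fold-change of -8.74 ± 0.34 (SE, n = 3 per group; adjusted p = 4.5e-06). The desmosomal cadherins DSC3 and DSG3 were not detected in any WT library. DSC3 was at 291, 278 and 276 CPM in MI-spheres, at least 6835-fold higher, and DSG3 at 171, 167 and 164 CPM, at least 4054-fold higher. Tight junction genes were lower in the same way, with 448, 435 and 469.7 CPM of CLDN7 in MI-spheres against 11.2, 6.12 and 13.2 CPM in WT cells, and a log2 fold-change of -7.44 for MARVELD3 (adjusted p = 6.1e-06). PERP, a desmosomal protein and p63 target, was among the most abundant of these genes in MI-spheres, at 1350.1, 1354 and 1379 CPM, and had 71.3, 28.1 and 85.1 CPM in WT cells. EPCAM, an epithelial adhesion molecule, was reduced less, from 70.2, 61.5 and 63.1 to 17.6, 11.3 and 22.2 CPM (log2 fold-change -1.93 ± 0.26, adjusted p = 0.00073). EPCAM thus differed between non-overlapping groups, but by a smaller fold than CDH1. The scaffold TJP1 had a log2 fold-change of 0.06 (adjusted p = 0.76) and CXADR, a junction receptor, of -0.26 (adjusted p = 0.61). The plakophilin PKP2 was the only member past the adjusted p with a higher level in WT cells (0.64, 0.0094), below the fold limit of a DEG.

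Regulators of the epithelial state differed further. Among 21 genes tested, 20 were DEGs lower in WT cells and 0 higher (median log2 fold-change -6.83), and 21 were lower without WT replicate 2. Of the genes tested, 9 passed the filter through MI-spheres alone, and such genes had to differ. GRHL2, a Grainyhead factor that maintains CDH1 transcription, was at 132, 134 and 133 CPM in MI-spheres and 0.117, 0.0431 and 0.0838 CPM in WT cells (log2 fold-change -10.56 ± 0.30, adjusted p = 2.7e-06). ESRP1, which splices epithelial isoforms, had 2 counts in all WT libraries together against 216, 209 and 202 CPM in MI-spheres, a ratio of 7614 (95% counting interval 2107 to 62879.7). FOXA1, a pioneer factor of luminal cells, was at 109.3, 105.04 and 104.9 CPM against 0.0391, 0.0862 and 0.0838 CPM. RAB25, a small GTPase of epithelial recycling endosomes, was at 171, 168 and 158 CPM against 0, 0.129 and 0.0419 CPM. TP63, coding for the basal lineage factor p63, was at 54.3, 55.5 and 50.7 CPM against 1.06, 1.03 and 1.26 CPM (log2 fold-change -5.58 ± 0.20, adjusted p = 3.5e-06). The groups did not overlap for any of these 5 genes, as was the case for 66.8% of all genes tested. GATA3, a luminal factor, was the exception, at 15.6, 15.9 and 15.5 CPM in MI-spheres and 3.91, 14.4 and 4.06 CPM in WT cells, where replicate 2 alone came near the spheres (-1.07, adjusted p = 0.11). Without replicate 2 it was lower in WT cells (-2.0004, 1.6e-09).

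E-boxes of the letters CAGGTG, searched on both strands (so that CACCTG also counts), are bound by SNAIL and ZEB proteins. Such an E-box lay within 250 bases before to 50 bases after the start of 6 of 18 junction genes and 4 of 11 regulators with a RefSeq promoter (GRCh38.p14), against 20.7% of all 27305 promoters of that length. This is a count of letters and not of bound sites. Promoters of 2 genes low in WT cells, CRB3 (a polarity protein of tight junctions; 28.2, 24.6 and 28.2 against 0.0391, 0.259 and 0.209 CPM) and RAB25, are shown because they hold several E-boxes, in capitals, with 5 and 2 matches. They lie at chr19:6464021-6464320 and chr1:156060910-156061209, both on the plus strand.
CRB3: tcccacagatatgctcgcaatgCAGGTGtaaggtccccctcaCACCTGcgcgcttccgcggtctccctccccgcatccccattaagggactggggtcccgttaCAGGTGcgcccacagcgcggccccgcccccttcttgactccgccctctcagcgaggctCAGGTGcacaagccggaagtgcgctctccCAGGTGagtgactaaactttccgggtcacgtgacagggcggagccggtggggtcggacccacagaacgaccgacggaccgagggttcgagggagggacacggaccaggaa
RAB25: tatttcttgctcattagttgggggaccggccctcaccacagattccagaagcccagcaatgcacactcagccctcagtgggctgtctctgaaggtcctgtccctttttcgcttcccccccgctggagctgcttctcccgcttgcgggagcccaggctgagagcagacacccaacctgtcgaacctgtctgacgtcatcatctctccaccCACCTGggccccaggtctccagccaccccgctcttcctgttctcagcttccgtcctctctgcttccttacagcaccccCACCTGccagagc

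Host transcripts of epithelial microRNAs were low too. MIR205HG, the host of miR-205, was at 209.8, 208 and 203 CPM in MI-spheres and without a count in WT cells, at least 5021-fold lower. MIR200CHG, which hosts miR-200c and miR-141, was at 17.7, 16.6 and 17.1 against 0.157, 0 and 0 CPM (log2 fold-change -8.15 ± 0.66, adjusted p = 5.8e-05). MIR31HG, the miR-31 host, was at 2.73, 2.91 and 2.81 CPM in MI-spheres and at 0 in WT cells. In the other direction, MIR100HG, which hosts miR-100, was at 7.21, 6.27 and 7.61 CPM in MI-spheres and 142, 80.7 and 127 CPM in WT cells (log2 fold-change 4.05, adjusted p = 2.5e-05), and MIR503HG, next to miR-503, at 0.407, 0.251 and 0.486 against 14.9, 18.4 and 15.4 CPM (5.39, 1.2e-05). MIR4435-2HG and MIR222HG, which hosts miR-221 and miR-222, were higher too (2.54, 2.2e-05 and 1.22, 0.013), and MIR34AHG, the host of miR-34a, was lower (-2.43, 0.0004). In all, 4 of 16 host transcripts tested were DEGs higher and 7 lower in WT cells (8 lower without WT replicate 2), and MIR155HG was not tested. These shares, 25% and 43.8%, stand beside 23.4% and 21.1% over all genes. Of the hosts tested, 3 passed the filter through MI-spheres alone and 1 through WT libraries alone, and such genes had to differ. Levels of the mature microRNAs were not measured. Their RefSeq sequences (GRCh38.p14) are shown because the host transcripts differ, with the seed (bases 2 to 8) in capitals, which no pair of them shares.
hsa-miR-200c-3p: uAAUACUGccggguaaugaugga
hsa-miR-141-3p: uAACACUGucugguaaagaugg
hsa-miR-205-5p: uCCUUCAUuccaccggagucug
hsa-miR-31-5p: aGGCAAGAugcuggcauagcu
hsa-miR-100-5p: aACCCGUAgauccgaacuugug
hsa-miR-503-5p: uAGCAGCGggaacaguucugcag

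**Figure D2:**
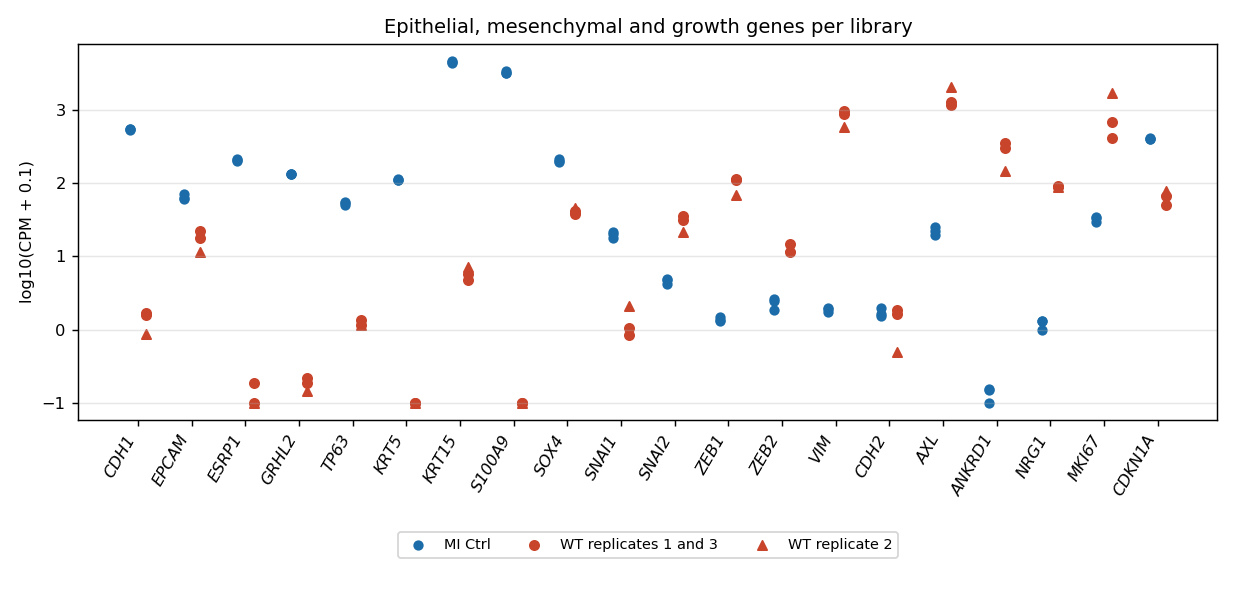
Level of named genes in each library as log10(CPM + 0.1); blue points are the 3 MI-sphere libraries, red points the 3 WT libraries, with replicate 2 as a triangle. CDH1 lies at 542 to 556 CPM in MI-spheres and at 0.776 to 1.60 CPM in WT cells, and VIM shows the opposite order; CDH2 overlaps between the groups.

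Keratins, the intermediate filaments of epithelia, were taken as a basal and stress list, lower in WT cells, and a simple list, which was mixed. The basal and stress list also holds the mucosal keratins KRT4 and KRT13. The simple list also holds the hair keratin KRT81 and its close relative KRT86. All 9 basal and stress keratins tested were DEGs lower in WT cells, of which 7 passed the filter through MI-spheres alone (median log2 fold-change -10.93); KRT6C was not tested. KRT15 was at 4673, 4399 and 4571 CPM in MI-spheres and 5.59, 7.03 and 4.69 CPM in WT cells (log2 fold-change -9.62 ± 0.29, adjusted p = 2.7e-06). KRT17, a basal and stress keratin, was at 1372, 1293 and 1355 against 0.430, 0.992 and 0.628 CPM, and KRT13, a mucosal keratin, at 964, 922 and 945 against 0.117, 0.172 and 0 CPM. KRT5 was at 110.6, 114 and 109.8 CPM in MI-spheres and at 0 in WT cells, at least 2697-fold lower. KRT4, a mucosal keratin, and KRT6A, induced by stress and wounding and near-identical to KRT6B, were at 141, 147 and 149 and 57.2, 55.5 and 51.4 CPM in MI-spheres with 1 WT count each. The WT libraries were thus under 1 CPM for the keratins named from this list, except KRT15. Per kilobase of exon, KRT15 was the most abundant of this list in MI-spheres, at 762 CPM per kb, followed by KRT17 at 447 and KRT13 at 324, while KRT5 had 26.96 and KRT14 only 0.723. Of the 8 keratins on the simple list, 2 (25%) were higher and 4 (50%) lower, against 23.4% and 21.1% of all genes. The 4 lower ones include KRT81 and KRT86. KRT19 was at 3.50, 3.71 and 2.91 CPM in MI-spheres but 265, 526 and 292 CPM in WT cells (log2 fold-change 6.74 ± 0.37, adjusted p = 1.2e-05). KRT80 was higher as well, at 16.9, 17.8 and 17.2 against 77.3, 212 and 84.1 CPM (2.85, 0.00098; 2.19 without WT replicate 2). KRT7 was lower in WT cells (-2.80, 6.1e-05), as was the hair keratin KRT81 (-7.60, 2.8e-06), which is close in sequence to KRT86 so that the counts of both are uncertain. KRT20, an intestinal keratin, was at 0.896, 1.35 and 0.917 CPM in MI-spheres and at 0 in WT cells. The pair KRT8 and KRT18, common to simple epithelia, had log2 fold-changes of -0.08 and -0.25 (adjusted p = 0.75 and 0.22). Without WT replicate 2 both were slightly lower in WT cells (-0.23, 0.016 and -0.33, 0.0009).

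Genes of the cornified envelope and of mucosal defence were expressed in MI-spheres and hardly in WT cells. In this list 18 of 28 members were tested, 15 through MI-spheres alone, and all 18 tested were lower in WT cells (20 without WT replicate 2). Their median log2 fold-change was -10.81, or -9.67 with genes absent from WT cells set to their bound. S100A9 and S100A8, the subunits of calprotectin, were at 3183, 3186 and 3449.6 CPM and 1461, 1493 and 1567 CPM in MI-spheres and had no count in any WT library. They were at least 78970.4-fold and 36367-fold higher in MI-spheres. SLPI, a secreted protease inhibitor, was at 824, 863 and 925 CPM in MI-spheres and had 1 count in WT cells, a ratio of 62913 (95% counting interval 11291 to 2484979). S100A7, psoriasin, with near-identical copies that make its count uncertain, was at 334, 335 and 349.6 CPM in MI-spheres and also had 1 WT count. These genes were close to constant among the MI-sphere libraries. LCN2, an iron-binding defence protein, was at 259, 257 and 247 against 1.09, 0.647 and 0.796 CPM. Involucrin (IVL), a scaffold of the cornified envelope, was at 47.3, 45.8 and 40.4 CPM in MI-spheres with 1 count in WT cells, and SPRR3 at 69.7, 62.8 and 65.2 CPM with none. S100A2, a p63-driven calcium-binding protein, kept more transcripts in WT cells, at 146, 64.7 and 195 CPM against 647, 656 and 658 CPM (log2 fold-change -2.27 ± 0.38, adjusted p = 0.002).

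EMT transcription factors did not move as a block. Of 12 tested, 5 were DEGs higher and 7 lower in WT cells (4 and 7 without WT replicate 2), and PRRX1, FOXC2 and GSC were not tested. These shares, 41.7% and 58.3%, stand beside 23.4% and 21.1% over all genes. Of the factors tested, 3 passed the filter through MI-spheres alone and 1 through WT libraries alone, and such genes had to differ. ZEB1 was at 1.39, 1.25 and 1.19 CPM in MI-spheres and 115, 69.7 and 110.6 CPM in WT cells (log2 fold-change 6.26 ± 0.29, adjusted p = 7.2e-06). ZEB2 was at 1.75, 2.51 and 2.38 against 14.5, 13.4 and 11.3 CPM (2.56 ± 0.24, 0.00011), and SNAI2, which codes for SLUG, at 4.85, 4.61 and 4.10 against 31.5, 21.7 and 35.1 CPM (2.70 ± 0.24, 9.3e-05). All WT libraries were above all MI libraries for these 3 genes, as was the case for 33.0% of all genes tested.

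SNAI1, TWIST1, KLF8, TCF4 and SOX4 had the opposite order. SNAI1, coding for SNAIL, was at 21.4, 20.2 and 17.7 CPM in MI-spheres and 0.743, 1.98 and 0.964 CPM in WT cells (log2 fold-change -4.01 ± 0.38, adjusted p = 0.00013). TWIST1 was at 4.32, 3.46 and 4.96 against 0.0782, 0.0862 and 0.0838 CPM (-5.59 ± 0.35, 2e-05), and its relative TWIST2 at 5.78, 5.72 and 5.72 CPM against none. KLF8 and TCF4, which also repress E-cadherin, were lower in WT cells (-4.41, 1.1e-05 and -5.64, 7.3e-06). SOX4, a factor of progenitor and tumour cells and the centre of the study, was at 217, 201 and 194 CPM in MI-spheres and 41.7, 45.5 and 37.4 CPM in WT cells (-2.30 ± 0.17, 3.5e-05). The groups did not overlap for any of them, as was the case for 66.8% of all genes tested.

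Mesenchymal markers were higher in WT cells for the most part. Among 29 tested, 18 were DEGs higher and 5 lower (17 and 6 without WT replicate 2), with a median log2 fold-change of 3.22, and POSTN and THY1 were not tested. Vimentin (VIM) was at 1.87, 1.66 and 1.83 CPM in MI-spheres and 879, 591 and 980.4 CPM in WT cells (log2 fold-change 8.83 ± 0.32, adjusted p = 3.2e-06). CDH11, a mesenchymal cadherin, had 2 counts in MI-spheres and 271, 259 and 283 CPM in WT cells, a ratio of 8548 (95% counting interval 2366 to 70591). COL5A1, which initiates collagen fibrils, was at 0.122, 0.1003 and 0 against 219, 1026 and 201 CPM, with WT replicate 2 far above the others. The other fibrillar collagen chain among the largest differences, COL1A2, had 2 counts in MI-spheres and 39.7, 68.9 and 37.1 CPM in WT cells. The receptor kinase AXL was at 22.2, 24.8 and 19.6 against 1158, 2068 and 1302 CPM (6.08 ± 0.32, 1e-05), and fibronectin (FN1) at 60.3, 54.2 and 59.1 against 747, 1015 and 654 CPM (3.80 ± 0.23, 1.8e-05).

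Some genes of that list went the other way or did not differ. N-cadherin (CDH2), often read as a partner of lost E-cadherin, was at 1.87, 1.45 and 1.51 CPM in MI-spheres and 1.53, 0.388 and 1.76 CPM in WT cells, with overlapping ranges (log2 fold-change -0.40 ± 0.51, adjusted p = 0.54). Decorin (DCN), a matrix proteoglycan, was at 11.7, 12.3 and 12.6 CPM in MI-spheres and at 0 in WT cells, at least 294-fold lower. COL5A2 (-3.43, 7.7e-05), COL3A1 (-1.51, 0.0091) and TGFBI (-1.58, 0.00013) were lower in WT cells, as was the protease FAP, at 3.95, 3.61 and 4.10 CPM in MI-spheres with 3 WT counts. COL1A1 was at 8.23, 6.72 and 8.42 against 2.97, 17.4 and 2.14 CPM (-0.05, adjusted p = 0.96), with WT replicate 2 alone above the spheres, and lower without it (-1.63, 2e-06). Of the mesenchymal genes tested, 6 passed the filter through WT libraries alone and 5 through MI-spheres alone.

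Hemidesmosomes and the basement membrane, which anchor basal cells, split by component. Of 19 genes tested, 9 (47.4%) were DEGs higher and 3 (15.8%) lower in WT cells, against 23.4% and 21.1% of all genes. Without WT replicate 2 the counts were 8 and 5. COL17A1, the hemidesmosomal collagen, was at 239.8, 224 and 219 against 23.5, 34.3 and 24.5 CPM (log2 fold-change -3.05, adjusted p = 2.9e-05). The laminin chains LAMA3 and LAMB3 did not pass (adjusted p = 0.15 and 0.095). LAMA4, a laminin chain of mesenchymal basement membranes, was lower too (-2.55, 0.00012). ITGB4 was at 501, 484 and 465 CPM in MI-spheres and 207, 688 and 203 CPM in WT cells, so that WT replicate 2 lay above and the others below the spheres (-0.40, adjusted p = 0.5). Without it ITGB4 was lower in WT cells (-1.27, 4.2e-10). Its partner ITGA6 was just past the fold limit (1.03, 0.011). The type IV collagen chains COL4A1 (3.43, 0.00017) and COL4A2 (3.42, 0.00035; 2.82 without WT replicate 2) were higher in WT cells, as was the linker dystonin, DST (2.20, 5.5e-05). PLEC, coding for plectin, was at 520.3, 479 and 429 against 1347, 8249 and 1463 CPM (2.95, 0.012), and its log2 fold-change was 1.53 without WT replicate 2, which was far above the other libraries.

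Matrix proteases and serpins differed in both directions. Of 21 genes tested, 7 (33.3%) were DEGs higher and 10 (47.6%) lower, against 23.4% and 21.1% of all genes. Without WT replicate 2 the counts were 8 and 10. Through MI-spheres alone 10 genes passed the filter, and such genes had to differ. MMP10, a stromelysin, was at 13.3, 13.6 and 15.2 CPM in MI-spheres and at 0 in WT cells, and the collagenase MMP13 at 43.5, 44.3 and 43.3 against 0.117, 0.0431 and 0.0838 CPM (log2 fold-change -8.96, adjusted p = 3e-06). The gelatinase MMP2, often tied to invasion, was lower too, at 3.10, 2.61 and 2.86 against 0.235, 0.0862 and 0.168 CPM (-4.07, 0.00011). Higher in WT cells was PLAT, the tissue plasminogen activator (2.18, 4e-05). The membrane protease MMP14 was higher in WT cells (1.42, 0.0038), as were the inhibitors TIMP2 (2.81, 0.00015) and TIMP3 (2.07, 4.1e-05). SERPINB3, SERPINB4 and SERPINB13 are neighbours in the clade B serpin cluster. SERPINB3 was at 301, 315 and 287 CPM in MI-spheres and at 0 in WT cells, at least 7295-fold lower. SERPINB4 and SERPINB13 were at means of 26.2 and 26.1 CPM in MI-spheres, with 1 and 0 WT counts. SERPINB3 and SERPINB4 are near-identical, and the split of their counts is uncertain.

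YAP and TAZ, the effectors of the Hippo pathway, drive growth genes through TEAD factors and respond to cell spreading. Of 27 genes of this pathway, 19 were DEGs higher and 2 lower in WT cells, with the same counts without WT replicate 2 and a median log2 fold-change of 1.80. ANKRD1 had 2 counts in MI-spheres against 307, 148 and 351 CPM in WT cells, a ratio of 8525 (95% counting interval 2359.7 to 70401). CCN2, the matricellular protein CTGF, was at 1.91, 1.35 and 1.89 CPM in MI-spheres and 130.5, 169 and 137 CPM in WT cells (log2 fold-change 6.396 ± 0.25, adjusted p = 4.5e-06). The MI libraries were all below 2 CPM. CCN1 was at 12.8, 10.6 and 11.1 against 232, 776 and 215 CPM (5.15 ± 0.59, 0.0003; 4.25 without WT replicate 2). Among pathway components, WWTR1 (TAZ), TEAD1 and TEAD4 were DEGs higher in WT cells (log2 fold-changes of 1.39, 1.63 and 1.80), whereas YAP1 was higher by less than the fold limit (0.47, 0.041). NF2, the upstream inhibitor Merlin, was lower in WT cells, at 102.1, 99.4 and 94.5 against 16.1, 33.8 and 15.7 CPM (-2.17 ± 0.33, 0.0011). IGFBP3, also listed as a target, was lower (-3.49, 9.4e-06).

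The TEAD core letters GGAATG, searched on both strands, occurred in 10 of 21 promoters of this list that RefSeq holds and in 14.2% of all promoters of the same window. The CCN2 and ANKRD1 promoters are shown as those of the targets that differed most, with 3 and 2 matches in capitals. They lie on the minus strand of GRCh38.p14 at chr6:131951323-131951622 and chr10:90921038-90921337. Matches of letters do not show that a factor is bound.
CCN2: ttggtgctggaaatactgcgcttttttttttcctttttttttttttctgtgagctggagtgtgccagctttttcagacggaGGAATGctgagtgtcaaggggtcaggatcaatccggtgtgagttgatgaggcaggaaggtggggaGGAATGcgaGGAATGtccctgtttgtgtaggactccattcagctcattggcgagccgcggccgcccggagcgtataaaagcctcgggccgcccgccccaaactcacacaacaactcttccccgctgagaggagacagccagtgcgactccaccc
ANKRD1: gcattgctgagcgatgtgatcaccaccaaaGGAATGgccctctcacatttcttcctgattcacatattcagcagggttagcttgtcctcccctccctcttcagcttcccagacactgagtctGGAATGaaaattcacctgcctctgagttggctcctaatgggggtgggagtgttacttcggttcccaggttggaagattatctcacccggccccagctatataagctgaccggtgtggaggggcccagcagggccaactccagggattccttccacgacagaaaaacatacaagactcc

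TGFB2 and the TGFβ receptors were higher in WT cells than in MI-spheres, while the ID genes, targets of bone morphogenetic proteins (BMPs), were lower. Of 38 pathway genes tested, 10 were DEGs higher and 12 lower (median log2 fold-change 0.03; 9 and 13 without WT replicate 2). These shares, 26.3% and 31.6%, stand beside 23.4% and 21.1% over all genes, so the list as a whole had no common direction. TGFB2, coding for the ligand TGFβ2, was at 1.67, 1.60 and 1.73 CPM in MI-spheres and 128, 84.6 and 132 CPM in WT cells (log2 fold-change 6.10 ± 0.27, adjusted p = 6.1e-06). INHBB, a chain of activin, had 4 counts in MI-spheres and 4.85, 7.42 and 5.91 CPM in WT cells. The signalling receptors TGFBR1 (1.70, 0.00087) and TGFBR2 (1.21, 0.00096) were higher, as was the co-receptor TGFBR3 (4.01, 1e-05). BMPR1B, a BMP receptor, was lower (-4.71, 5e-06). BMP4 was at 0.244, 0.251 and 0.486 against 189, 387 and 219 CPM (9.67, 9e-06) and its antagonist NOG, noggin, at 0.285, 0.301 and 0.108 against 30.2, 47.9 and 37.2 CPM. The inhibitors of differentiation ID1, ID2 and ID3, direct BMP targets, were lower in WT cells. ID1 was at 952, 882 and 948 CPM in MI-spheres and 31.3, 56.4 and 44.4 CPM in WT cells (-4.40 ± 0.27, 1.8e-05), and ID2 at 147, 146 and 161 against 0.782, 0.776 and 0.838 CPM (-7.56 ± 0.20, 2.7e-06). Of the TGFβ SMADs, SMAD2 was slightly lower in WT cells (-0.83, 0.023), while SMAD3 (0.39, 0.21), SMAD4 (-0.50, 0.18) and the inhibitory SMAD7 (-0.04, 0.88) did not pass the test. GDF15, a stress cytokine, was at 177, 154 and 166 against 1.92, 4.36 and 2.97 CPM (-5.75, 1.6e-05).

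RAS genes and transcripts that ERK signalling controls were mostly higher in WT cells. Among 24 tested, 13 were DEGs higher and 3 lower, with and without WT replicate 2, and the median log2 fold-change was 1.07. NRAS was at 83.5, 85.2 and 84.1 CPM in MI-spheres and 229, 85.4 and 248 CPM in WT cells (log2 fold-change 1.15, adjusted p = 0.035) and HRAS at 43.5, 41.2 and 43.1 against 58.5, 102.8 and 72.5 CPM (0.87, 0.015). The HRAS difference passed the adjusted p but not the fold limit, and NRAS was at the level of the spheres in WT replicate 2. The ERK-induced factors ETV1, FOSL1 and ETV5 were higher in WT cells. ETV1 was at 0.815, 1.35 and 0.378 against 90.5, 41.0 and 89.4 CPM (6.42 ± 0.54, 7e-05), and FOSL1, coding for FRA-1, at 5.82, 5.97 and 4.10 against 61.0, 393 and 69.1 CPM (5.04 ± 0.83, 0.0018; 3.58 without WT replicate 2, the highest). Feedback inhibitors were higher too, such as SPRY4 (3.04, 0.00021), DUSP5 (1.78, 0.00032) and DUSP6 (1.06, 0.016). EGR1, an immediate early gene, was lower, at 47.8, 47.1 and 46.4 against 1.68, 10.2 and 1.26 CPM (-3.43, 0.0077; -5.02 without WT replicate 2), as was NF1, a GTPase activator of RAS (-1.32, 0.00096).

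ERBB receptors and their ligands differed gene by gene, with EGFR and NRG1 higher and ERBB2 and ERBB3 lower in WT cells. EGFR was at 108.5, 107.05 and 103.7 CPM in MI-spheres and 342, 576 and 267 CPM in WT cells (log2 fold-change 1.89 ± 0.30, adjusted p = 0.0013). ERBB3 went from 374, 369 and 366 CPM in MI-spheres to 5.95, 7.12 and 5.61 CPM in WT cells (-5.89 ± 0.20, 3e-06), and ERBB2 from 353, 339.8 and 338 to 73.9, 166 and 78.3 CPM (-1.69, 0.004). NRG1, the ligand of ERBB3 and ERBB4, was in turn at 0.896, 1.20 and 1.19 against 92.3, 87.5 and 89.7 CPM (6.36 ± 0.22, 3e-06). Of the EGFR ligands, EGF itself was higher (2.16, 0.00043), HBEGF (-1.28, 0.00081) and BTC (-2.38, 0.00041) were lower, and TGFA did not pass (0.06, adjusted p = 0.79). ERBB4 was not tested. The list held 3 DEGs higher (30%) and 4 lower (40%) of 10, against 23.4% and 21.1% of all genes.

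ESR1 was low in MI-spheres and lower still in WT cells. It was at 8.39, 8.52 and 7.12 CPM in MI-spheres and 0.352, 0.345 and 0.293 CPM in WT cells (log2 fold-change -4.58 ± 0.26, adjusted p = 1.4e-05). PGR, ELF5 and KIT were not tested. Of 11 hormone receptor and luminal genes tested, 2 (18.2%) were DEGs higher and 5 (45.5%) lower, against 23.4% and 21.1% of all genes. Without WT replicate 2, 7 were lower. AGR2, a secretory disulfide isomerase, was at 197, 193 and 207 against 9.27, 3.75 and 9.47 CPM (-4.73, 5.9e-05), and the prolactin receptor PRLR was higher in WT cells, at 0.652, 0.551 and 1.29 against 7.94, 6.12 and 7.62 CPM (3.12, 0.00032). TFF3, a secreted trefoil peptide, had 3 counts in MI-spheres and 2.15, 1.34 and 3.10 CPM in WT cells.

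Cell cycle genes were higher in WT cells nearly without exception. Of 43 S phase genes 38 were DEGs higher and 0 lower (median log2 fold-change 2.21), and of 54 G2/M genes 50 were higher and 0 lower (2.999). Without WT replicate 2, 41 and 51 were higher. The share of DEGs higher in WT was 23.4% over all genes. MKI67, the proliferation marker Ki-67, was at 34.7, 33.6 and 28.9 CPM in MI-spheres and 694, 1702 and 417 CPM in WT cells (log2 fold-change 4.85 ± 0.56, adjusted p = 0.00031; 4.07 without WT replicate 2). TOP2A, topoisomerase II of dividing cells, was at 96.4, 94.5 and 91.6 against 1229, 848 and 1378 CPM (3.61 ± 0.24, 2.4e-05), and the replication checkpoint adaptor CLSPN at 6.96, 6.37 and 7.45 against 141, 178 and 141 CPM (4.46 ± 0.20, 6.3e-06). Among the S phase genes with the largest differences were also TYMS, thymidylate synthase (4.24, 0.001; 3.25 without WT replicate 2, which was highest), UHRF1, which maintains DNA methylation (3.90, 7.5e-05), and DTL, a substrate receptor at replication forks (3.48, 2.2e-05). Among the G2/M genes were AURKB (4.32, 1.3e-05) and CDCA8 (4.18, 1e-05) of the chromosomal passenger complex and the spindle protein TACC3 (4.16, 0.00075; 3.22 without WT replicate 2, again highest). The lowest WT library was above the highest MI library for 41 S phase and 52 G2/M genes, against 33.0% of all genes. PCNA was at 116, 125 and 126 CPM in MI-spheres and 240.3, 120.6 and 302 CPM in WT cells, with replicate 2 at the level of the spheres (0.85, adjusted p = 0.057), and higher in WT cells without that library (1.12, 1.7e-08).

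Among the regulators of the cycle, 13 of 23 tested were DEGs higher and 4 lower, with and without WT replicate 2. CDK4 was at 31.4, 29.6 and 28.2 CPM in MI-spheres and 64.6, 59.1 and 81.6 CPM in WT cells (log2 fold-change 1.20 ± 0.18, adjusted p = 0.0012), and its partner CCND1 at 307, 291 and 281 against 636, 927 and 707 CPM (1.37 ± 0.20, 0.00091). CDK6, the other target of palbociclib, was at 179.7, 177 and 185 against 253, 158 and 235 CPM, with overlapping ranges (0.25 ± 0.21, adjusted p = 0.34). Without WT replicate 2, CDK6 was higher by less than the fold limit (0.41, 9.6e-05). CCND2 was at 3.29, 2.85 and 2.56 CPM in WT cells and had 2 counts in MI-spheres. The inhibitor CDKN1A (p21) was at 403, 402 and 411 CPM in MI-spheres and 50.5, 77.0 and 67.2 CPM in WT cells (-2.64 ± 0.21, 4.9e-05), and the ubiquitin ligase gene MDM2 was lower (-1.48, 0.00035). The p27 gene CDKN1B was at the fold limit (-1.04, 0.0049; -0.89 without WT replicate 2), and the pocket protein gene RBL2 was lower (-1.61, 0.00025). CDKN2C (3.38, 1.7e-05) and CDKN2D (2.63, 5.2e-05), which inhibit CDK4 and CDK6, were higher, as was the cyclin CCNA2 (2.86, 0.00043). CDKN2A and CDKN2B had no count in any of the 6 libraries, which allows a level of up to 0.0476 CPM in MI-spheres and 0.0413 CPM in WT cells.

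Around CDKN2A on chromosome 9p21, both lines lacked transcripts, and WT cells lacked more of them. CDKN2B-AS1 also had no count in either group, and MTAP had 2 counts in MI-spheres and 0 in WT cells. The genes from HACD4 to ELAVL2 lie between 20999509 and 23826337 on chromosome 9 (GRCh38.p13). KLHL9, an adaptor of a ubiquitin ligase, was at 40.2, 42.4 and 42.7 CPM in MI-spheres and had no count in any WT library, at least 1007-fold lower. HACD4, DMRTA1, ELAVL2 and IFNE were also without a count in WT cells, at means of 3.26, 2.12, 2.79 and 0.772 CPM in MI-spheres. Other MDA-MB-231 libraries were not all without KLHL9. Summed per group, it had 73 counts with the control siRNA Csi, 95 with siRNAs against SMAD2, SMAD3 and SMAD4, and 0 in SLUG KO. FOCAD, just outside this interval, was at 64.1, 59.2 and 62.3 against 15.9, 10.8 and 15.6 CPM (log2 fold-change -2.13 ± 0.21, adjusted p = 0.00013). PLIN2, a coat protein of lipid droplets further out on the arm, was instead at 0.448, 0.301 and 0.486 CPM in MI-spheres and 69.2, 45.1 and 83.2 CPM in WT cells (7.30, 9e-06). Of the 11 members, 7 were tested, 5 of them through MI-spheres alone, and 6 were lower and 1 higher (median log2 fold-change -8.59, or -5.69 with undetected genes at their bound).

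Replication-dependent histone genes of chromosome 6 had a block that was all but silent in WT cells. This group was chosen after its values were seen, when H4C5 came up among the DEGs with the largest difference. Of 48 such genes tested, 27 were DEGs higher and 17 lower in WT cells. The 12 consecutive histone genes tested from H4C4 to H2BC10, between 26188710 and 26273412 on chromosome 6 (GRCh38.p13), had at most 4 counts each in the 3 WT libraries together, and means of 2.59 to 153 CPM in MI-spheres. The gene before the block, H2BC6, was at 12.6 CPM in MI-spheres and 32.6 CPM in WT cells on average, and the gene after it, H4C8, at 72.5 against 319 CPM. A further run of 3 genes, H2AC16, H1-5 and H4C13, had 0, 1 and 0 counts in WT cells. In SLUG KO libraries, which are MDA-MB-231 cells too, no gene of the block exceeded 3 counts over 3 libraries. Csi libraries, also of MDA-MB-231 cells, had at most 2 counts per gene of the block, but they were near 0 at many histone genes outside it as well, with 3 counts of H4C2 and 4 of H2AC12 against 26679 and 16088 in WT cells, so their values do not set the block apart. Of the other 33 chromosome 6 histone genes, 27 were higher in WT cells. Histone genes are near-identical copies, so counts of single ones are uncertain at the mapping quality used.

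**Figure D3:**
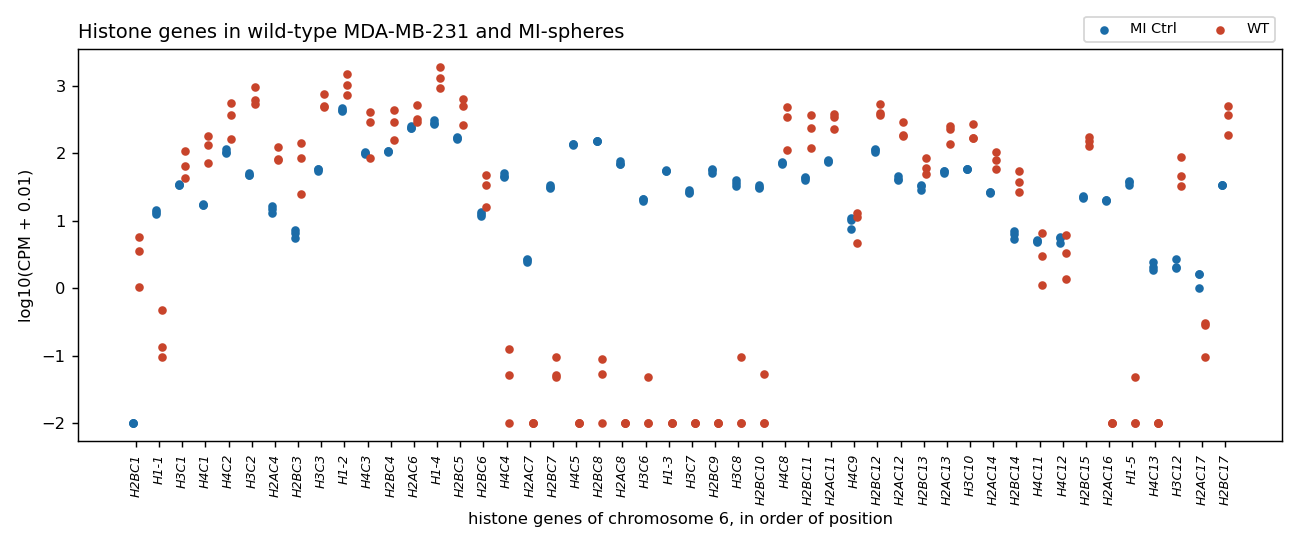
Level of each histone gene tested on chromosome 6, in order of position (x axis), as log10(CPM + 0.01) in each library; blue points are MI-spheres and red points WT cells. From H4C4 to H2BC10 the WT libraries lie at 0 to 4 counts per gene while the genes on both sides reach a mean of 32.6 CPM (H2BC6) and 318.6 CPM (H4C8).

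HOX genes, which set positional identity, reached the count filter mostly in 1 group alone. Of 39 HOX genes 21 were tested and 18 were too low in both groups. The filter was passed through MI-spheres alone by 15 genes and through WT libraries alone by 5, so these had to differ, and the 15 DEGs lower and 5 higher in WT cells say nothing further about HOX genes as a group. HOXA5 was at 77.1, 70.0 and 74.5 CPM in MI-spheres and at 0 in WT cells, at least 1794-fold lower. HOXA2, HOXA3, HOXA10 and HOXA11 had no WT count either, whereas HOXA13 at the end of the cluster was higher in WT cells, at 0.285, 0.301 and 0.108 against 1.80, 0.733 and 1.68 CPM (2.55, adjusted p = 0.0049). HOXC13 and HOXC11 were absent from WT cells as well, at means of 12.6 and 4.71 CPM in MI-spheres. HOXD3 and HOXD4 were at means of 1.20 and 2.25 CPM in WT cells and had no count in MI-spheres. HOXB9 was higher in WT cells too, at 0.0814, 0.551 and 0.270 against 3.21, 3.92 and 2.93 CPM (3.50, 0.0012).

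Interferon-stimulated genes were more often higher than lower in WT cells. Of 28 tested, 14 were DEGs higher and 2 lower (3 lower without WT replicate 2), with a median log2 fold-change of 1.19. IFIT1, which binds foreign RNA, was at 2.65, 3.66 and 5.56 CPM in MI-spheres and 113, 58.5 and 144 CPM in WT cells (log2 fold-change 4.74 ± 0.45, adjusted p = 0.00012). RSAD2, XAF1 and CMPK2, further interferon-induced genes, were among those with the largest differences, at means of 12.6, 5.76 and 2.02 CPM in WT cells against 0.374, 0.187 and 0.0439 CPM in MI-spheres. ISG15, a ubiquitin-like modifier, was at 11.1, 12.7 and 13.3 against 66.4, 149.8 and 93.4 CPM (3.06, 0.0002). OAS1, a sensor of double-stranded RNA, was opposite, at 210.1, 198 and 199 against 2.70, 1.34 and 2.26 CPM (-6.58 ± 0.31, 7.4e-06), as was SAMD9 at 973, 959.6 and 978 against 101.5, 45.2 and 103.9 CPM (-3.54, 0.00015). The transcription factor IRF9 did not pass (-0.15, adjusted p = 0.65).

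Antigen presentation genes of class II were found in WT cells. CD74, the invariant chain, was at 1.63, 1.25 and 1.08 CPM in MI-spheres and 163, 341 and 180.2 CPM in WT cells (log2 fold-change 7.41 ± 0.42, adjusted p = 1.4e-05). HLA-DRA was at 0.285, 0.451 and 0.594 against 56.3, 34.4 and 70.5 CPM (6.93, 1.8e-05), and HLA-DRB1 and HLA-DPA1 were higher in the same way (6.93, 1.7e-05 and 6.82, 2.5e-05). Their activator CIITA was higher as well (3.31, 0.0021; 2.39 without WT replicate 2). Among class I genes HLA-B was higher (1.77, 0.00011), HLA-F lower (-2.13, 7.5e-05), and HLA-C did not pass (-0.51, adjusted p = 0.088). These genes are similar in sequence, and the split of their counts is uncertain. The light chain B2M was at the fold limit (-1.01, 0.035; -0.74 without WT replicate 2). In all, 10 of 18 were DEGs higher and 2 lower (11 and 1 without WT replicate 2).

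Cytokines differed in both directions, with 6 of 22 tested DEGs higher and 12 lower in WT cells (5 and 13 without WT replicate 2). These shares, 27.3% and 54.5%, stand beside 23.4% and 21.1% over all genes. Of the genes tested, 7 passed the filter through MI-spheres alone and 3 through WT libraries alone, and such genes had to differ. CSF1, a growth factor of macrophages, was at 7.70, 7.32 and 8.63 CPM in MI-spheres and 167, 424 and 175 CPM in WT cells (log2 fold-change 5.02 ± 0.44, adjusted p = 8.4e-05; 4.41 without WT replicate 2). IL6 was at 0.652, 0.251 and 0.648 against 10.4, 6.17 and 8.55 CPM (3.99, 0.00017) and CSF2 at 0.204, 0.1003 and 0 against 5.91, 4.61 and 4.11 CPM (5.41, 0.00023). CCL2, a monocyte chemokine, was at a mean of 0.642 CPM in WT cells with 1 count in MI-spheres. IL6, CSF2 and CCL2 stayed under 11 CPM in every library. Neutrophil chemokines were lower in WT cells, as for CXCL8 at 135, 138 and 143 against 11.4, 3.49 and 14.1 CPM (-3.84, 0.00052) and CXCL1 at 45.5, 48.4 and 43.2 against 2.07, 1.34 and 2.60 CPM (-4.51, 2e-05). CCL20, a chemokine of dendritic and T cells, was at a mean of 3.87 CPM in MI-spheres with 4 WT counts. Members of the IL-1 family, IL1A, IL1B, IL1RN, IL18, IL33 and IL36G, were lower too. IL36G had no WT count and IL33 1, with means of 1.16 and 16.6 CPM in MI-spheres. IL1RN, the receptor antagonist, was at 69.5, 70.2 and 65.1 against 0.587, 0.388 and 0.419 CPM (-7.18, 3e-06).

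Metabolic genes differed in both directions. Of 31 hypoxia and glycolysis genes, 6 were DEGs higher and 4 lower in WT cells, shares below those of all genes (23.4% and 21.1%). LDHA, which makes lactate, was higher (1.43, adjusted p = 0.0014), as were the enolase ENO2 (3.43, 2.4e-05), the mitophagy receptor BNIP3 (2.91, 0.00015) and PFKFB4 (1.54, 0.0006), an activator of glycolysis. ANGPTL4, an inhibitor of lipoprotein lipase, was at 151, 147 and 149 against 7.39, 13.2 and 8.88 CPM (-3.92, 2.5e-05). The aldolase ALDOA (-1.68, 0.00074) and ANKRD37 (-3.37, 1.1e-05) were lower too. The stress gene DDIT4 was lower, at 786, 786 and 764 against 67.2, 72.0 and 77.0 CPM (-3.43, 8.3e-06). The hypoxia marker CA9 was at 3.14, 2.61 and 3.45 CPM in MI-spheres and 1.64, 2.85 and 2.22 CPM in WT cells (-0.46, adjusted p = 0.21). Of 25 cholesterol genes, 8 (32%) were higher and 3 (12%) lower (2 without WT replicate 2). The synthesis enzyme SQLE did not pass (-0.60, adjusted p = 0.076). INSIG1, which retains the SREBP processing complex (2.91, 0.00027), and the sterol carrier STARD4 (2.80, 0.0019) were higher. FDFT1 (-1.12, 0.00097) and SC5D (-1.001, 0.049), enzymes of the later steps, were lower, the latter by less than the fold limit without WT replicate 2 (-0.69).

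Of the surface markers used for mammary stem-like cells, CD44 was higher and CD24 lower in WT cells. CD44 was at 186, 179.9 and 179.5 CPM in MI-spheres and 552, 692 and 507 CPM in WT cells (log2 fold-change 1.68 ± 0.18, adjusted p = 0.00024), and CD24 at 1348, 1364 and 1384 against 12.6, 5.17 and 11.6 CPM (-7.12 ± 0.41, 1.5e-05). ALDH1A3, an aldehyde dehydrogenase, was lower in WT cells (-7.11, 2.7e-06), as was its relative ALDH1A1, at 2.73, 3.41 and 4.26 CPM in MI-spheres with 1 WT count. MME, the myoepithelial marker CD10, was at 60.7, 62.1 and 66.4 CPM in MI-spheres and at 0 in WT cells. NGFR, the neurotrophin receptor (6.33, 3.6e-05), and NT5E, the ectonucleotidase CD73 (4.08, 1.7e-05), were higher in WT cells. This list had 4 DEGs higher (33.3%) and 6 lower (50%) of 12 tested, against 23.4% and 21.1% of all genes. Without WT replicate 2 the counts were 5 and 5. Of genes linked to metastasis of MDA-MB-231 cells, 6 of 19 tested were higher and 8 lower (9 lower without WT replicate 2), or 31.6% and 42.1% against 23.4% and 21.1% of all genes, with a median log2 fold-change of 0.10. The chemokine receptor CXCR4 was at 0, 0.251 and 0.108 against 22.6, 13.1 and 29.8 CPM (7.53, 0.00011) and VCAM1 at 0.204, 0.0501 and 0.486 against 10.5, 5.26 and 8.38 CPM (5.03, 0.00035). NEDD9, a scaffold of focal adhesions, was higher (3.13, 1e-05), while PTGS2 (COX-2) was lower at 24.9, 25.5 and 23.7 against 1.49, 0.517 and 1.30 CPM (-4.47, 6.9e-05). Cancer-testis antigens were hardly expressed, and only 3 of 34 passed the filter. SPANXB1 (6.42, 4.10 and 6.996 CPM), PAGE5 (1.37, 0.819 and 1.005 CPM) and CT83 (6.92, 1.42 and 7.92 CPM) were higher in WT cells. SPANXB1 and PAGE5 had no count in MI-spheres, so they passed the filter through WT libraries alone and had to differ.

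The protein-coding DEGs with the largest differences, at 50 CPM or more in the higher group and without overlap, were 10 in each direction. Higher in WT cells were EDIL3, a vascular integrin ligand (228, 110.04 and 243 CPM, at least 4106-fold), SERPINB9, an inhibitor of granzyme B (103.04, 94.4 and 109.3 CPM, at least 2149.9-fold), the extracellular protein ANOS1 (74.7, 51.7 and 72.4 CPM, at least 1399.5-fold), the intermediate filament nestin, NES (54.8, 75.2 and 54.5 CPM, at least 1286-fold), and the protease inhibitor TFPI2 (54.3, 24.8 and 72.1 CPM, at least 1065-fold). None of these 5 had a count in MI-spheres. CST1, a secreted cystatin, had 1 count in MI-spheres and 100.3, 84.9 and 117 CPM in WT cells, and TGM2, tissue transglutaminase, was at 0.448, 0.301 and 0.0540 against 709.5, 1407 and 760.1 CPM (log2 fold-change 11.71, adjusted p = 1.3e-05). CDH11, ANKRD1 and COL5A1 complete these 10. Lower in WT cells, beside the S100, serpin, SLPI and desmosomal genes above, were AOC1, a diamine oxidase (445, 421 and 427 CPM in MI-spheres), CYP4F3, a fatty acid hydroxylase (153 CPM), and the histone gene H4C5 (136, 134 and 139.9 CPM). WT cells had no count of any of these 3. Among lncRNAs, LINC00667 (18.97, 8.62 and 19.1 CPM), ENSG00000287156 (13.1, 17.9 and 12.7 CPM) and MAGI2-AS3 (13.2, 8.24 and 13.3 CPM) were higher in WT cells, with 0, 1 and 1 counts in MI-spheres. MIR205HG and HOTAIRM1, a lncRNA of the HOXA cluster (22.5, 18.7 and 16.9 CPM in MI-spheres and 0 in WT cells), were lower.

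Markers of other cell types were few. Of 12 immune markers 3 were tested, and CD14 was at 103.7, 104.5 and 110.3 CPM in MI-spheres against 3.99, 4.83 and 4.48 CPM in WT cells (log2 fold-change -4.58, adjusted p = 4.5e-06). ITGAM was lower (-4.32, 8.3e-05) and CSF1R higher in WT cells (1.65, 0.0039), with no library above 2.96 and 10.05 CPM. Of 8 endothelial markers 4 were tested, and CDH5 was at 24.2, 23.2 and 22.2 CPM in MI-spheres with 1 count in WT cells, while KDR was at 5.55, 6.99 and 7.12 CPM in WT cells. PECAM1 and VWF, which define endothelium, were at means of 10.2 and 1.39 CPM in MI-spheres and 4.96 and 0.223 CPM in WT cells. Of 9 fibroblast markers 6 and of 5 adipocyte markers 2 were tested. The pericyte and fibroblast receptor PDGFRB was at a mean of 15.3 CPM in WT cells against 0.117 CPM, and the adipocyte genes PLIN1 and LPL stayed under 4 CPM in both groups. The part of these markers in the other results was not tested.

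The same genes in the other groups of the series are given as levels, on 1 scale over all 24 RNA-seq libraries (median CPM of 3 libraries). HRAS-transformed MCF-10A cells (MII), also grown as spheres, kept CDH1 at 555 CPM and VIM at 2.78 CPM without TGFβ, near MI-spheres at 527 and 1.77 CPM. TGFβ for 16 h left MI-spheres at 545 CPM of CDH1 and 7.75 CPM of VIM. S100A9 was at 88.6 CPM in MII-spheres against 3061 CPM in MI-spheres, and at 0 in every MDA-MB-231 group. The libraries labelled SLUG KO, placed by the labels in the MDA-MB-231 line, had 1.23 CPM of CDH1, 96.4 CPM of ZEB1 and 0.640 CPM of SOX4, and WT cells 1.41, 106.3 and 40.05 CPM. Transcripts of the targeted gene SNAI2 were at 57.8 to 64.3 CPM in the libraries labelled SLUG KO against 20.9 to 33.7 CPM in WT cells. Its RNA was thus not lower under that label. The paper reports that knockout clones were checked by ddPCR and immunoblotting, and protein cannot be read from these counts. MDA-MB-231 cells transfected with the control siRNA Csi, from another batch, had more CDH1 (17.3 CPM) and SOX4 (132 CPM) than WT cells. They had ZEB1 at 86.8 CPM and VIM at 1027 CPM. ALDH1A1 was at 62.6 CPM in Csi libraries, 0 CPM in WT cells and 3.28 CPM in MI-spheres. Its order against MI-spheres thus differed between these MDA-MB-231 groups. Since batch and transfection differ, no test was made. HRAS was at 223 CPM in MII-spheres, 41.2 in MI-spheres and 69.7 in WT cells.

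**Figure D4:**
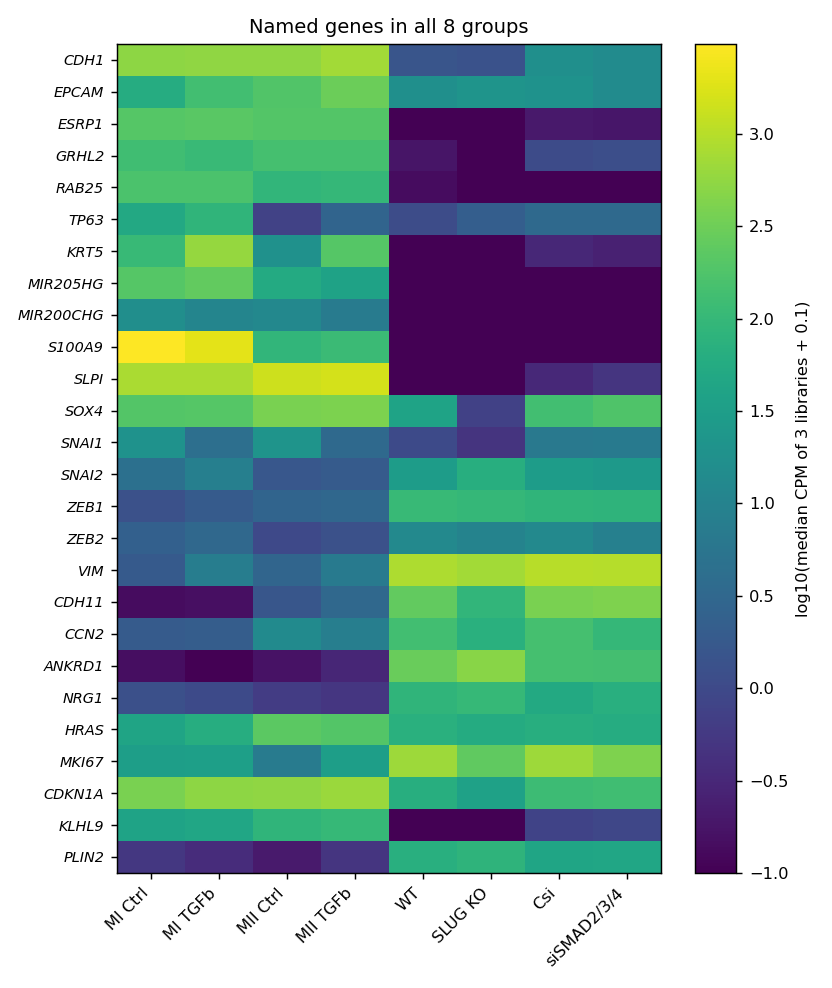
Median level of named genes in the 8 RNA-seq groups of the series, as log10(CPM + 0.1) over 3 libraries each, with all 24 libraries scaled together. The 4 MDA-MB-231 groups have medians of 0 CPM for S100A9 and of 721 to 1027 CPM for VIM.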

How the data were processed

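The 6 RNA-seq libraries were made from total RNA with the TruSeq stranded total RNA kit after RiboZero depletion and sequenced as paired reads, per the labels. The labels and the study's methods give different read lengths. Reads were trimmed (Trimmomatic), aligned (STAR) and summed per gene by the authors with featureCounts (Subread 2.0.0, GRCh38.p13, per the submitters' processing notes and the file headers), keeping alignments of MAPQ 30 or more and ignoring strand. The deposited values are raw counts per gene for 60708 genes. Overlapping, antisense and near-identical genes are therefore uncertain. The depth of 19546521 to 25645025 counts per library sets a detection limit of 3 counts per group.

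Counts were analysed in R 4.3.3 with edgeR 4.0.16. Genes passing filterByExpr (18732, about 0.437 CPM in 3 libraries) were scaled by TMM and tested with the quasi-likelihood test (WT against MI Ctrl, no covariate) and Benjamini-Hochberg adjustment. DEGs had an adjusted p under 0.05 and an absolute log2 fold-change above 1. Ratios with 1 to 3 counts in a group carry 95% exact counting intervals, which cover counting error only. The scripts were tested on simulated data. Exon length per gene came from the deposited files, and RefSeq sequences and GC content from the reference tables given (GRCh38.p14). Python 3.11.15, pandas 2.3.3 and SciPy 1.17.1 made the tables.

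Same-numbered libraries of both groups did not deviate together (r = -0.077, 0.000202 and 0.066), so the numbers were not taken as pairs. Alternatives were DESeq2 1.42.0, its size factors, no TMM, no filter, a filter of 10 counts in every library, a length offset, a replicate block, a fit over 18 libraries, a robust fit, limma 3.58.1 with quality weights, leaving out each library, and, chosen after the data were seen, a GC-content offset.

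The members and the 32 gene lists were chosen with earlier results of these data known, so list counts are descriptions. Named genes were the 10 protein-coding DEGs per direction with the largest fold-change (50 CPM or more, no overlap), 3 lncRNAs per direction (10 CPM or more), up to 4 DEGs per direction and list, and a fixed set of lineage, RAS, cell cycle and SMAD genes. Some genes that the rule selects are not reported here.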

Additional observations from a re-analysis of the deposited data

How the results depend on the processing

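The results were recomputed under 17 alternatives set out at the start and 2 GC-content offsets chosen after the data were seen. Among the genes named by the rule, none that was called changed direction under any of them. A filter of at least 10 counts in every library, which takes out genes with few counts in 1 group, left 13692 genes and 4778 DEGs, 2549 higher and 2229 lower, with 6527 past the adjusted p. Leaving out 1 library at a time gave 7617 to 9144 DEGs, 3954 to 4758 higher and 3663 to 4696 lower, and 8083 to 14660 genes past the adjusted p, the last without WT replicate 2. With the replicate number as a block, although the numbers did not pair the libraries, there were 8275 DEGs, 4197 higher and 4078 lower, and 9279 genes past the adjusted p. DESeq2 called 9857 DEGs of 28642 genes. Total counts without TMM shifted the median log2 fold-change by 0.13 and put 57.4% of DEGs on the higher side against 52.6%. With the GC-content offset, 12086 genes passed the adjusted p with all 6 libraries and 14553 without WT replicate 2. Of the genes named by the rule and reported here, those that lost their DEG call under an alternative that tested them were B2M, CDKN1B, FDFT1, ITGA6, MIR222HG, NRAS, PECAM1 and SC5D. Genes chosen after their values were seen, such as DUSP6 near the fold limit, are not covered by these 2 statements.

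The comparison has 1 cell line per group with different growth forms and media, so what belongs to the line and what to the culture cannot be told apart. With 3 libraries per group, 1 of which stands apart, differences under 2-fold and genes of extreme GC content are the least secure. A count of 0 bounds a level and does not show that a gene is silent. Counts of strand-overlapping and near-identical genes are uncertain.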

Other observations

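Neighbouring genes were often low together in 1 of the groups. Runs were taken as 3 or more consecutive protein-coding genes, other than those under 1 CPM in both groups, with at least 1 CPM on average in 1 group and at most 3 counts in the other. This definition and the runs named were chosen after the values were seen, so no test was made. There were 11 runs low in WT cells and 8 low in MI-spheres. The longest had 11 genes, IVL to S100A7, in the epidermal differentiation complex of chromosome 1 (152908546 to 153460651, GRCh38.p13). S100A9 was highest in it, at a mean of 3273 CPM in MI-spheres, and S100A12, a related calcium-binding protein, was at 9.23 CPM. None of these 11 genes had a count in Csi or SLUG KO libraries. A run of 4 CYP4F genes, which code for fatty acid hydroxylases, lay on chromosome 19 (15615218 to 15934867), with means of 153 CPM for CYP4F3 and 144 CPM for CYP4F12 in MI-spheres against 0 and 0.041 CPM in WT cells. Csi libraries had 16 and 32 counts of CYP4F3 and CYP4F12, and SLUG KO libraries 0 and 4. Of the protocadherins, PCDHA2, PCDHA3, PCDHA4 and PCDHA6 had means of 1.62 to 13.0 CPM in MI-spheres and at most 1 WT count each.

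In the other direction, the zinc finger genes of chromosome 19, which code for DNA-binding repressors, held several runs without transcripts in MI-spheres. The longest had 7 genes, from ZNF253 to ZNF626 (19865882 to 20661596), at most 1 count each in MI-spheres and means of 6.56 to 18.6 CPM in WT cells. MII-spheres had at most 3 counts of each without TGFβ. ZNF100 differed from its neighbours, with 0 counts in MI-spheres, 210 in MII-spheres and 1915 in WT cells. Over all of chromosome 19, 70 of 217 zinc finger genes tested (32.3%) were DEGs higher and 25 (11.5%) lower in WT cells. At most 3 counts in MI-spheres were found for 31 of them, which passed the filter through WT libraries alone and had to differ. On other chromosomes 44 of 218 (20.2%) were higher and 33 (15.1%) lower, and 8 had at most 3 counts in MI-spheres. The shares over all genes were 23.4% and 21.1%. Since the runs named were chosen after the values were seen, these counts are descriptions. On the X chromosome, 5 ARMCX genes, whose products sit on mitochondria, formed a further run (101418287 to 101659850). ARMCX2 and ARMCX3 had no count in MI-spheres and means of 40.4 and 34.6 CPM in WT cells.

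The genes of the mitochondrial genome gave a shift that 1 library made. Their median log2 fold-change over 13 genes was 2.67 with all 6 libraries and 0.40 without WT replicate 2. MT-ND5, a subunit of complex I, was at 173, 3079.7 and 134 CPM in WT cells and 151, 148 and 135 CPM in MI-spheres, so that WT replicates 1 and 3 lay close to the spheres.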
